A study of Saccharomyces cerevisiae with 24 samples.

Results

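Long nanopore reads of nascent RNA were compared between the budding yeast strain Nab2-AA and the untagged control strain Control-AA, both after 10 min of rapamycin. The 4 libraries, 2 per strain, were chosen by their labels and belong to a series of 24 samples. For each intron-containing gene, the reads were described by where they start, where they end, how far they run past the gene and whether the intron was still present. Both strains carry RPL13A-2xFKBP12::LoxP-TRP1-LoxP, tor1-1 and fpr1Δ::loxP-LEU2-LoxP. Only Nab2-AA also carries NAB2-FRB::HIS. The mating types differ as well (MATalpha for the tagged strain, MATa for the other), and this difference cannot be told apart from the tag in any comparison below. Cells of each strain grew in YPAD at 30 °C to log phase and received rapamycin at 1 ug/ml, so the drug was present in the controls too. Chromatin-bound RNA was freed of DNA with DNase, of poly(A) RNA with oligo(dT) beads and of ribosomal RNA with an exonuclease. An adapter was ligated to the 3′ ends before strand-switching cDNA synthesis, PCR and a 48 h nanopore run. The labels do not say whether the 2 libraries of a strain came from separate cultures, so the p-values below reflect no more than how these libraries scatter, and that scatter may be technical.

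Nab2 is a nuclear protein that binds poly(A) tails and takes part in mRNA 3′ end formation, RNA stability and export. In the anchor-away method rapamycin joins an FRB-tagged protein to an FKBP12-tagged ribosomal protein, which carries it out of the nucleus. At the end of a gene the transcript is normally cleaved and polyadenylated, and RNA polymerase II stops transcribing further downstream. When cleavage fails, polymerase can continue into the next gene, a behaviour called readthrough, and a transcript that began in an upstream gene can then include the intron-containing gene. Removal of Nab2 acts on the protein, and NAB2 is not among the genes with reads used here, so its RNA level offered no check of the labels.

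The libraries held 32107 and 11485 (Nab2-AA) and 10042 and 14264 (Control-AA) distinct alignments, replicates 1 and 2 in that order here and in every list below. No read name was shared between libraries. Between 5.96% and 6.24% of read names occurred on both strands, and 12.9% to 20.1% of alignments were identical copies of another alignment in the same library. Of 284 genes in the authors' table, 270 were matched to a strand and position in the reference gene table, and 267 had reads. Reads per gene of the 2 Control-AA libraries differed by no more than counting (chi-square 242.6, df 224, p = 0.187 over genes), whereas those of the 2 Nab2-AA libraries differed more (chi-square 311.0, p = 0.000106). The Control-AA libraries nevertheless differed in their spliced share, 74.4% (exact 95% interval 73.4% to 75.3%) against 76.4% (75.7% to 77.2%), and were kept as separate samples. Intervals here and below are exact binomial and cover counting error only, since PCR copies are not independent molecules.

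Reads ran past the end of the gene more often in Nab2-AA. Of all read and gene pairs, 24.9% and 25.1% ended more than 250 nt past the coding end in Nab2-AA, against 12.9% and 13.1% in Control-AA. The groups did not overlap, and the difference of 12.0 percentage points was far larger than the SD within a strain (25% ± 0.0830 and 13% ± 0.176, SD, n = 2). An exact 2-sided permutation test of 2 against 2 libraries cannot give less than p = 0.3333, the value reached here and for each library share below unless another is given.

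The gap between the strains widened, as a ratio, with distance. Ends more than 500 nt past the coding end made up 15.4% and 15.6% of pairs in Nab2-AA, against 5.25% and 5.19% in Control-AA. More than 1000 nt past it the shares were 7.14% and 7.60% against 2.03% and 1.86%. More than 2000 nt past it they were 1.26% and 1.67% against 0.387% and 0.258%. At each of these limits both Nab2-AA libraries lay above both Control-AA libraries. Reads ending before the coding end did not separate the strains (21.1% and 21.1% against 22.4% and 20%, exact permutation p = 1). Among reads that ended past the coding end, the median distance was 142 nt in both Nab2-AA libraries and 116 and 117 nt in Control-AA, and the 90th percentile was 935 and 972 nt against 390 and 375 nt. The change thus lay mainly in the far tail of the distances rather than in their middle.

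**Figure D1:**
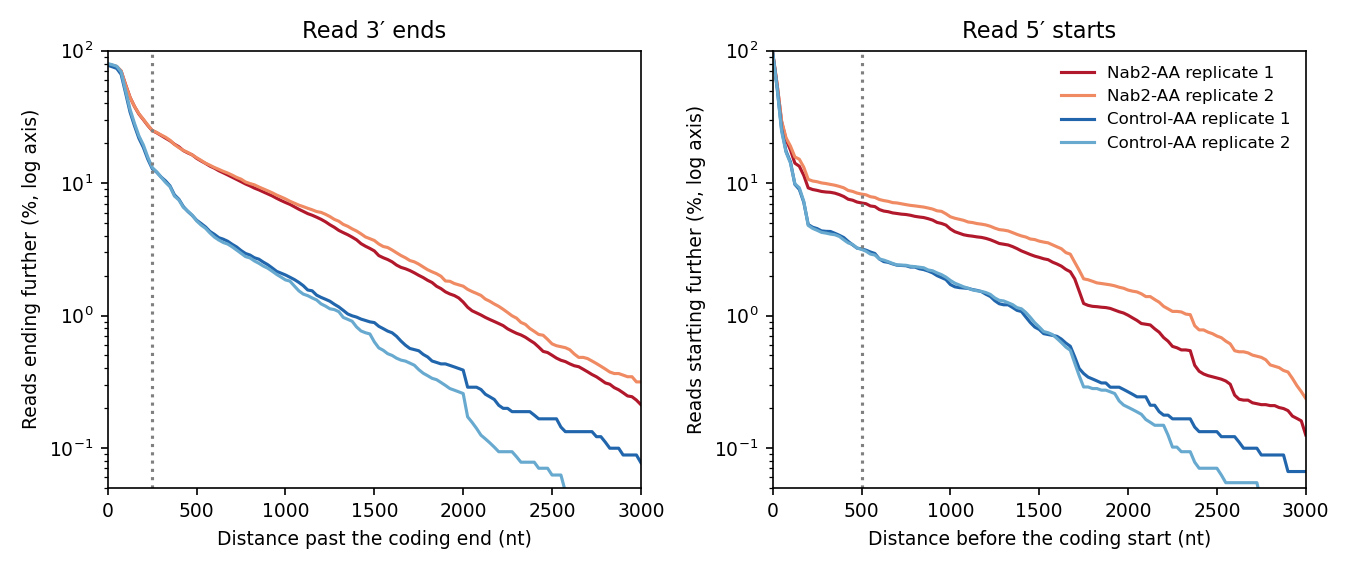
Share of read and gene pairs, on a log axis in percent, whose 3′ end lies further past the coding end (left) or whose 5′ start lies further before the coding start (right) than the distance in nt on the x axis; each line is 1 library and the dotted lines mark the limits of 250 and 500 nt. Past 250 nt both Nab2-AA lines (24.9% and 25.1% at the limit) lie above both Control-AA lines (12.9% and 13.1%), and the same holds for starts past 500 nt.

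Reads ending this far past the gene also ended inside neighbouring genes more often in Nab2-AA. The 250 nt limit alone does not mark readthrough. Among ECM33 reads ending past the coding end, the Control-AA median distance was already 339 and 346 nt. Of reads ending more than 250 nt past the gene, 23.3% in each Nab2-AA library ended inside a gene on the same strand, against 16.1% and 16.4% in Control-AA. Ends inside a gene on the opposite strand made up 36.2% and 34.3% against 27.3% and 26.5%. Ends between genes were correspondingly fewer, at 40.5% and 42.4% against 56.6% and 57.1%.

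Per gene, the share of reads ending beyond the 250 nt limit was tested in 224 genes with at least 20 reads in all and 1 in every library. It rose in 61 genes (27.2% of those tested) and fell in 1 (0.446%) by edgeR's quasi-likelihood test of the strain by state interaction at a Benjamini-Hochberg adjusted p under 0.05. Without regard to the test, both Nab2-AA libraries lay above both Control-AA libraries in 128 genes (57.1%) and below both in 8 (3.57%). The count depends on each library: without Nab2-AA replicate 1, 0 of 193 genes passed, and without Nab2-AA replicate 2, 30 passed. Leaving out either Control-AA library left 9.

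RPS18A, which encodes a protein of the small ribosomal subunit (chromosome IV, 1359923 to 1360798, build sacCer3), headed the list. Its share of reads ending beyond the gene was 37.9% and 34.5% in Nab2-AA, against 4.60% and 9.70% in Control-AA, a log2 odds ratio of 2.76 ± 0.30 (SE; edgeR adjusted p = 5.55e-16). ASC1, a ribosome-associated protein whose intron hosts a small nucleolar RNA (chromosome XIII, 499456 to 500688), followed with 22.9% and 22.7% against 4.93% and 4.41%, a log2 odds ratio of 2.60 ± 0.30 (edgeR adjusted p = 6.13e-15). For the large-subunit gene RPL25 (chromosome XV, 80348 to 81190) the shares were 39.7% and 43.2% against 16.8% and 11.6% (edgeR adjusted p = 2.40e-12). The groups were far apart in each of these genes. RPS9A gave 47.4% and 49.1% against 10.0% and 16.3%, and RPL16A 21.4% and 20.3% against 4.62% and 3.11%. RPS13, another small-subunit gene, gave 34.3% and 34.2% against 15.5% and 10.2%. In RPS7A, one of the most deeply read genes, the share was small in every library but still separated, at 7.74% and 8.68% against 1.80% and 0.796%. RPL21B gave 19.1% and 13.5% against 1.39% and 2.78%, but this gene changed direction with a limit of 100 nt (log2 odds ratio -1.34).

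Genes outside the ribosome were fewer in the list. RPO26, a subunit common to RNA polymerases I, II and III (chromosome XVI, 911257 to 911800), had 94.8% and 96.2% of its reads end beyond the limit in Nab2-AA, against 43.8% and 57.7% in Control-AA, a log2 odds ratio of 4.07 ± 0.70 (edgeR adjusted p = 3.25e-07). YRA1, an mRNA export adaptor (chromosome IV, 1236558 to 1238004), had 35.9% and 34.9% against 16.2% and 19.5% (edgeR adjusted p = 4.25e-07). ACT1, the actin gene (chromosome VI, 53260 to 54696, minus strand), had 11.9% and 14.8% against 4.60% and 5.77%, a log2 odds ratio of 1.39 ± 0.25 (edgeR adjusted p = 9.25e-07). VPS75, a histone chaperone, was the gene that fell. Its reads ended beyond in 48.0% and 42.1% of cases in Nab2-AA, against 100% and 69.2% of only 11 and 13 reads in Control-AA (edgeR adjusted p = 0.0410). In the same gene 40% and 47.4% of Nab2-AA reads, and 0.0% of Control-AA reads, also covered an upstream gene, and the part of this in the fall was not tested.

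Not every deeply read gene passed the test of ends beyond 250 nt. ECM33, which encodes a cell wall protein, had 52.2% and 58.2% of its reads end beyond 250 nt in Nab2-AA, against 48.1% and 52.3% in Control-AA (edgeR adjusted p = 0.325). HAC1, which encodes the transcription factor of the unfolded protein response, had 44.8% and 47.0% against 45.2% and 47.5% (edgeR adjusted p = 0.916). In both genes a large share of Control-AA reads already ended past the limit. Their median distance past the coding end was nevertheless longer in both Nab2-AA libraries. It was 359 and 360 nt against 339 and 346 nt for ECM33, and 376 and 393 nt against 352 and 353 nt for HAC1 (limma adjusted p = 0.181 each).

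**Figure D2:**
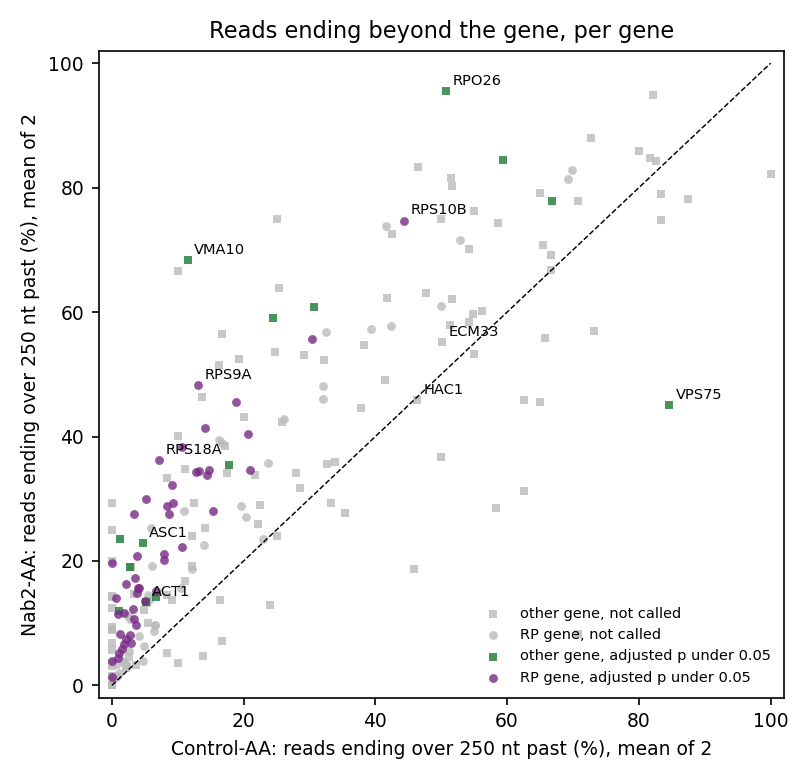
Share of reads ending more than 250 nt past the coding end, in percent, per gene: mean of 2 Control-AA libraries on the x axis, mean of 2 Nab2-AA libraries on the y axis, with circles for ribosomal protein (RP) genes, squares for other genes, colour for an adjusted p under 0.05 and the dashed line at equality. Of 224 genes, 61 called genes lie above the line and VPS75 below it.

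The gene lists described below were chosen with earlier results of these data known, so their counts are descriptions. Of 88 ribosomal protein (RP) genes tested, 48 rose and 0 fell, with a median rise of 11.7 percentage points; of 136 other genes 13 rose and 1 fell, with a median of 6.72. Over all 224 genes 27.2% rose, and the median was 8.53. RP genes started lower, with a median Control-AA share of 6.56% against 19.6% in other genes, and no test compared the lists. RP genes were also read more deeply, with a median of 51.1 reads per 10000 in Control-AA against 9.42 in other genes. A gene with more reads passes the test more easily, so the counts are not comparable between lists. Genes that host a snoRNA in an intron rose in 5 of 7 (ASC1, EFB1 and RPL7A have the most reads of the list). Among cytoskeletal genes 2 of 8 rose, ACT1 and the profilin gene PFY1 (60.8% against 30.7% as means of 2 libraries). Of 7 RNA processing and export genes 2 rose, YRA1 and HNT1, the second of which encodes a nucleotide hydrolase and does not do what the list's name says, and of 5 ubiquitin and proteasome genes 1 rose, the ubiquitin-conjugating enzyme gene UBC4, whose libraries overlapped (80.0% and 75.9% against 80.0% and 53.6%). Of 7 genes with 2 introns 2 rose. None of 4 mitochondrial respiratory genes passed. In the list of membrane traffic genes 0 of 13 rose, and VPS75, which as a histone chaperone does not do what the list's name says, fell.

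Genes were also listed by the direction of the neighbouring gene. Of genes whose next downstream gene lies on the same strand 28 of 95 rose, and of those facing a gene on the opposite strand 33 of 121 rose. Their median differences were 9.39 and 8.89 percentage points, beside 8.53 and 27.2% called over all genes, and no test compared them.

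The median distance past the coding end, among reads ending past it, gave a less firm result. In 138 genes with at least 5 such reads per library it was longer in both Nab2-AA libraries than in both Control-AA libraries in 75 genes (54.3%) and shorter in 2 (1.45%). None passed limma's adjusted threshold, while 32 had an unadjusted p under 0.05, 31 of them with a longer distance. The smallest adjusted p, 0.0802, was that of YRA1, whose median was 371 and 370.5 nt in Nab2-AA against 243 and 233 nt in Control-AA. For ACT1 the medians were 106 and 106 nt against 102.5 and 104.5 nt, and for RPS4B 131 nt in all 4 libraries. In these 2 genes the median end position was nearly the same in both strains.

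At the other end of the reads, most molecules began just before the coding start in every library. Starts within 250 nt before it made up 88.0% and 86.1% of pairs in Nab2-AA, against 92.2% and 92.7% in Control-AA. The median start of reads without an upstream gene lay 26 to 27 nt before the coding start, as -27 and -26 in Nab2-AA, against -26 and -26 in Control-AA. Starts more than 500 nt upstream were rarer but separated the strains, at 7.09% and 8.27% against 3.19% and 3.16%.

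Of the starts more than 500 nt upstream, 69.3% and 74.2% in Nab2-AA, against 54.2% and 56.3% in Control-AA, belonged to chimeric reads, defined as reads of an intron-containing gene that also overlap, by 50 nt or more, a gene lying upstream on that strand. Chimeric reads made up 5.15% and 6.46% of pairs in Nab2-AA, against 1.88% and 1.94% in Control-AA. Among them 60.5% and 53.9% started within 250 nt before the coding start of the upstream partner in Nab2-AA, against 52.4% and 53.4% in Control-AA. In both strains most chimeric reads therefore began where a read of the partner gene would begin. Most also stopped early, with 67.3% and 68.7% ending before the coding end of the intron-containing gene in Nab2-AA, against 75.9% and 78.7% in Control-AA.

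Chimeric reads joined 138 gene pairs. Of these, 134 were seen in Nab2-AA and 78 in Control-AA, which had fewer reads, and 104 and 42 were seen in both libraries of the strain. RPS9A and RPL21B, both RP genes (chromosome XVI, 404950 to 406044 and 406636 to 407539, plus strand), gave the most, although a gene on the opposite strand, YPL080C, lies between them. The chimeric share of RPL21B reads was 36.9% and 36.5% in Nab2-AA, 116 of 314 and 35 of 96 reads, and 4.17% and 4.63% in Control-AA, 3 of 72 and 5 of 108 reads. This was a log2 odds ratio of 3.62 ± 0.57 (SE; edgeR adjusted p = 1.16e-07). The same molecules stand behind part of the RPS9A result, since all 159 chimeric reads of this pair also counted among the 254 RPS9A reads that ended beyond RPS9A.

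RPL2A, a large-subunit gene (chromosome VI, 220507 to 221418, minus strand), was the other gene whose chimeric share passed the test. Reads that also covered its upstream neighbour RRT5 made up 8.39% and 10.0% of RPL2A reads in Nab2-AA, against 0.0% and 0.743% in Control-AA, with 52, 22, 0 and 2 reads (edgeR adjusted p = 3.09e-06). RPL21B and RPL2A were the 2 genes called of 224 (0.893%), while in 59 genes (26.3%) both Nab2-AA libraries lay above both Control-AA libraries and in 2 (0.893%) below both. Neither call was kept without Nab2-AA replicate 1 or without Nab2-AA replicate 2. The test of starts more than 500 nt upstream called the same 2 genes of 224 (0.893%), with both Nab2-AA libraries above both Control-AA libraries in 66 genes (29.5%) and below both in 6 (2.68%). Starts this far upstream made up 37.6% and 37.5% of RPL21B reads against 4.17% and 4.63% (edgeR adjusted p = 9.20e-07). Among the 5 genes with the most reads, ACT1, ECM33, RPS7A, RPS4B and EFB1, no chimeric read was seen in any library. In all of these except ACT1 the next upstream gene lies on the opposite strand, a layout with little room for such reads. Among genes with that layout the chimeric share lay higher in both Nab2-AA libraries in 8 of 111. With the next upstream gene on the same strand it did so in 51 of 113.

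In several pairs nearly all reads of the intron-containing gene came from upstream, in either strain. MUD1, a subunit of the U1 snRNP (chromosome II, 479338 to 480323), was covered mainly by reads that also covered TEF2, which encodes translation elongation factor 1 alpha: 94.6% and 94.7% in Nab2-AA, against 90.9% and 81.8% in Control-AA. Of 161 chimeric reads that spanned the MUD1 intron, 3 were spliced. REC102, needed for meiotic recombination (chromosome XII, 786442 to 787333), received 79 and 30 reads running from NMA1 in Nab2-AA, against 6 and 5 in Control-AA, nearly all of its 81, 31, 6 and 6 reads. DMC1, the meiotic recombinase gene (chromosome V, 548421 to 549517), received 39 and 16 of 40 and 16 reads from PDA1 in Nab2-AA, and all of 5 and 4 in Control-AA. These 2 meiotic genes were thus read almost solely within transcripts of an upstream gene.

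The other pairs among the 10 with most such reads varied more. MOB2, a regulator of a cell polarity kinase, was joined to RPL22B in 88.7% and 80.0% of reads in Nab2-AA, against 42.9% and 40% in Control-AA. YCL012C was joined to GBP2, which encodes an mRNA-binding protein, by 26 of 31 and 18 of 19 reads, against 1 of 4 in each Control-AA library. YKR005C was joined to MRPL13, a mitochondrial ribosomal protein gene, by all 37 and 17 of 19 reads in Nab2-AA and by all 3 and all 10 in Control-AA, so its share was high in both strains. YEL076C-A was joined to YEL075C in 88.9% and 77.3% of reads against 64.3% and 100%, and YLR464W to YLR462W in 95.5% and 88.9% against 75% and 91.7%. These last pairs lie in repeated families of the genome, so their assignment to a copy is uncertain.

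Introns were still present more often in Nab2-AA when all reads were pooled. A read counted as spliced when it had a gap whose ends lay no more than 10 nt from those of the intron, and as unspliced when it covered at least 90% of the intron. The spliced share was 65.2% and 65.8% in Nab2-AA, against 74.4% and 76.4% in Control-AA, 65.5% ± 0.405 and 75.4% ± 1.45 (SD, n = 2). The difference of -9.90 percentage points exceeded the spread within each strain, and was -5.87 with equal weight per intron.

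Reads were then divided by where they start and end. Within reads carry no upstream gene and end at most 250 nt past the coding end, beyond reads carry no upstream gene and end further on, and chimeric reads are as above. The 3 classes differed in splicing far more than the strains did. Within reads were spliced in 78.8% and 79.7% of cases in Nab2-AA, against 80.9% and 83.1% in Control-AA. Beyond reads were spliced in 31.9% and 34.6% against 34.0% and 36.6%, which overlapped (exact permutation p = 0.6667). Chimeric reads were spliced in 8.40% and 7.87% against 5.48% and 5.66%. Nab2-AA minus Control-AA was -2.75, -2.07 and 2.56 percentage points in the 3 classes, and the groups did not overlap in within and chimeric reads. With equal weight per intron these differences were -3.18, 3.25 and 7.93, the last over 13 introns. When identical alignments were counted as 1, the difference within was -4.17.

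The share of reads in each class differed too. Within reads made up 72.4% and 71.5% of reads spanning an intron in Nab2-AA, against 86.6% and 86.3% in Control-AA. Beyond reads made up 24.7% and 24.7% against 12.6% and 12.9%, and chimeric reads 2.86% and 3.81% against 0.853% and 0.870%. When each library's class-specific spliced shares were averaged with the class weights of Control-AA, the spliced share was 72.8% ± 0.747 for Nab2-AA against 75.4% ± 1.56 for Control-AA (SD, n = 2), which differ by -2.62 points in place of -9.90. This average pooled RP and other introns, which were not alike: for RP introns the difference was -8.60 points over all reads and -1.13 over within reads, and for other introns -11.2 and -7.63.

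**Figure D3:**
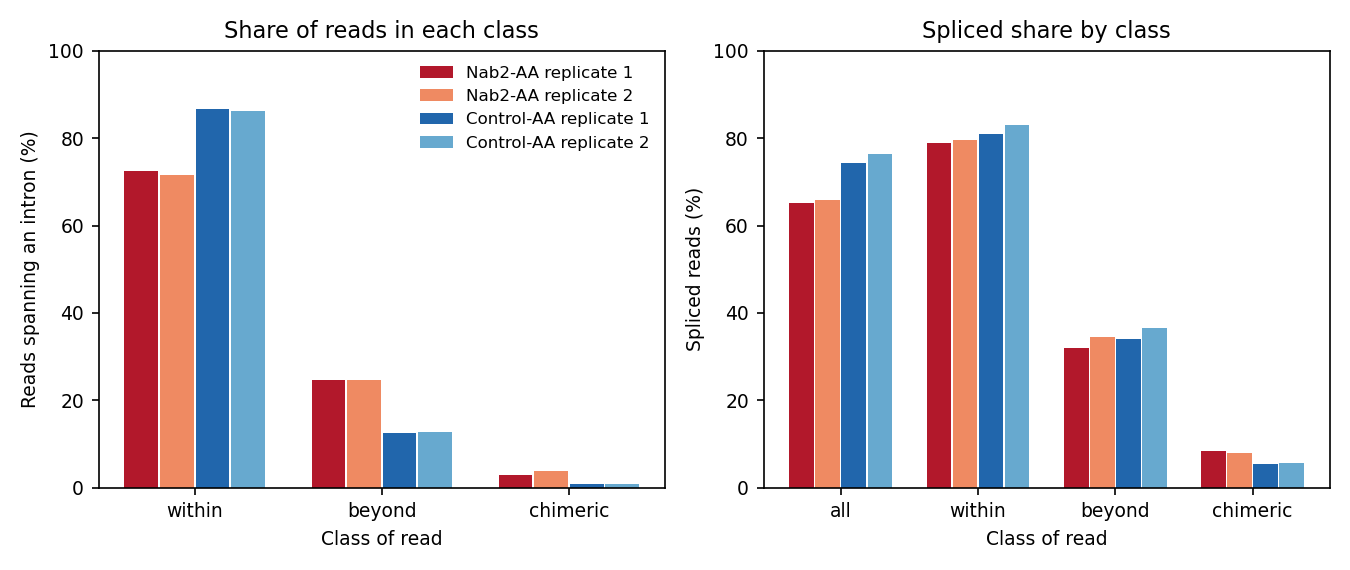
Left, share of reads spanning an intron that fall in each class, and right, share spliced within each class, in percent per library. In Nab2-AA 24.7% of reads in both libraries ended beyond the gene, against 12.6% and 12.9% in Control-AA, while the spliced shares inside a class lay close together.

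Because genes differ in how well they are spliced, the comparison was repeated within introns by Mantel-Haenszel odds ratios, given here as descriptions. In each of the 4 libraries beyond reads were less often spliced than within reads of the same introns, with log2 odds ratios of -2.30, -2.16, -2.01 and -2.27. Chimeric reads were lower still, at -4.12, -3.88, -4.41 and -4.87. Between strains, the 4 pairings of a Nab2-AA with a Control-AA library gave -0.54, -0.73, -0.47 and -0.65 over all reads. Over within reads alone they gave -0.09, -0.36, -0.05 and -0.29, and over beyond reads 0.20, 0.17, 0.34 and 0.31. Over chimeric reads they gave 1.82, 1.51, 1.17 and 1.41, from 29 to 36 introns and at most 73 and 106 Control-AA reads. Matched by intron, the strain difference was therefore below 0 in each pairing over all reads and within reads, nearer to 0 in within reads, and above 0 in beyond and chimeric reads.

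Splicing followed the position of the 3′ end closely and in the same shape in all 4 libraries. Reads ending more than 200 nt before the coding end were spliced in 35.5% and 31.4% of cases in Nab2-AA, against 37.9% and 38.0% in Control-AA. Reads ending 0 to 100 nt past the coding end were spliced in 90.9% and 92.7% against 92.8% and 93.5%. The spliced share was thus highest for reads ending shortly after the gene. Further on it was lower, at 37.3% and 39.2% against 45.7% and 52.5% at 250 to 400 nt, and 25.3% and 29.8% against 26.2% and 22.9% at 400 to 600 nt. Ends more than 1000 nt past were spliced somewhat more often, in 38.4% and 41.5% of cases in Nab2-AA, against 29.4% and 32.7% in Control-AA. The files do not show whether a 3′ end is that of RNA still held by polymerase or of RNA already cleaved.

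**Figure D4:**
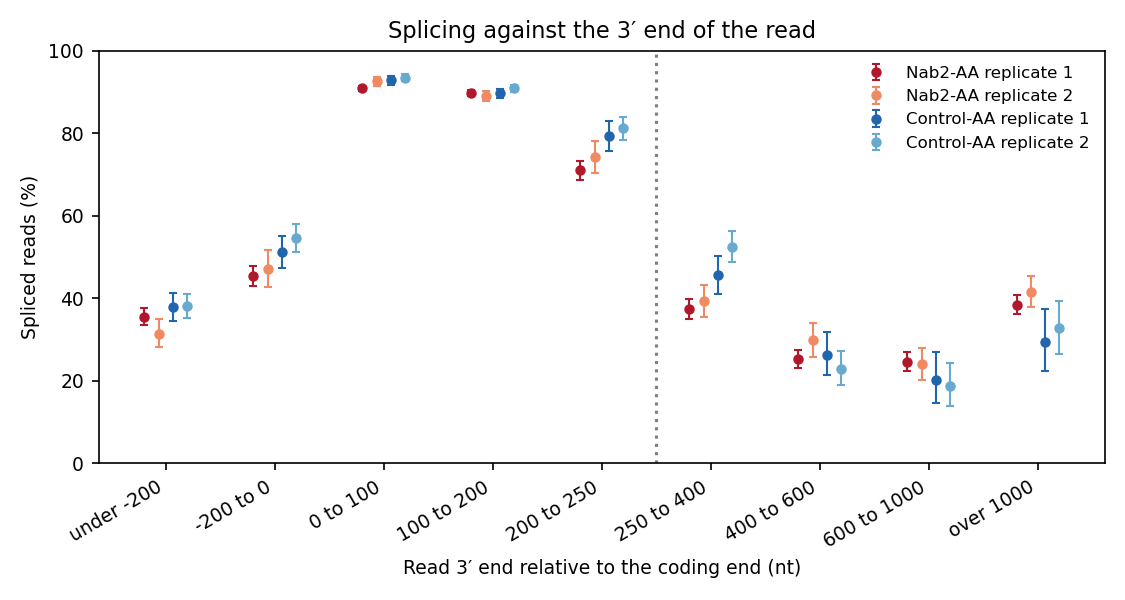
Spliced share in percent of reads without an upstream gene (points, with exact 95% binomial intervals) against the position of the read's 3′ end relative to the coding end in nt, per library; the dotted line marks 250 nt. All 4 libraries lie between 90.9% and 93.5% at 0 to 100 nt and between 22.9% and 29.8% at 400 to 600 nt.

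RP genes and other genes differed in how splicing varied with the 3′ end. For ends 100 to 200 nt past the coding end RP introns were spliced in 93.4%, 92.4%, 93.3% and 94.0% of reads without an upstream gene over the 4 libraries, and other introns in 72.3%, 73.5%, 74.0% and 76.8%. At 400 to 600 nt the order was the opposite, with 13.5%, 18%, 17.4% and 8.85% for RP introns and 32.8%, 35.6%, 29.9% and 27.9% for other introns. Past 1000 nt RP introns were spliced in 44.1% and 45.0% of such reads in Nab2-AA, against 25.9% and 34.8% in Control-AA. In within reads RP introns were spliced in 87.8% and 88.4% of cases in Nab2-AA, against 88.5% and 89.9% in Control-AA, and other introns in 56.2% and 56.3% against 62.1% and 65.7%. In beyond reads RP introns were spliced in 29.9% and 31.4% against 25.7% and 26%, and other introns in 33.9% and 37.3% against 38.4% and 42.4%. Pooled over reads, the strain difference in beyond reads was 4.82 percentage points for RP introns and -4.78 for other introns, a contrast that was not tested. ECM33 alone supplied 588 of 3383, 248 of 1216, 173 of 706 and 285 of 1015 beyond reads of other introns over the 4 libraries. Per intron, the median difference had the same sign in both lists, 3.57 points over 63 RP introns and 5.86 over 52 other introns.

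Single genes with many reads showed how the 3′ end and splicing go together. ACT1 reads ending 0 to 250 nt past the coding end were spliced in 94.5%, 93.9%, 95% and 96.1% of cases over the 4 libraries. Those ending further were spliced in 43.7% and 64.0% in Nab2-AA, against 54.5% and 58.3% in Control-AA. RPS7A gave 97.9%, 98.6%, 99.5% and 98.1% close to the gene, and 40% and 33.3% beyond it in Nab2-AA, where Control-AA had only 4 and 3 reads, 0 spliced. EFB1, which encodes translation elongation factor 1B alpha, gave 94.1%, 89.2%, 90.4% and 94.4% close to the gene. Beyond it the EFB1 shares were 30.4% and 24.1% in Nab2-AA, against 43.8% and 53.6% in Control-AA. In each of these genes the drop past the limit appeared in both strains wherever more than 4 reads were seen.

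ECM33 departed from this pattern. Its median distance among reads ending past the coding end was already 339 and 346 nt in Control-AA, past the 250 nt limit. Its reads stayed mostly spliced beyond the limit, in 85.0% and 81.5% of cases in Nab2-AA, against 88.4% and 89.1% in Control-AA, as against 74.3% and 72.4% and 85.3% and 83.8% for ends 0 to 250 nt past the coding end. YRA1 showed the drop from a low level. It was spliced in 35.9% and 44.0% against 40% and 50% close to the gene and in 8.29% and 6.56% against 10.5% and 7.32% beyond it. HAC1, whose intron is removed outside the nucleus by the endonuclease Ire1 and a ligase rather than by the spliceosome, was spliced in 6 of 953 reads over all libraries.

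RPL7A, RPS4B, ASC1 and TEF4 complete the genes chosen by their spanning reads, among all genes or among genes other than RP genes. RPS4B gave 98.0%, 98.9%, 97.7% and 98.2% for ends 0 to 250 nt past the coding end. RPL7A, a large-subunit gene with a pair of introns counted together here, gave 95%, 98.5%, 97.7% and 97.2%. A read spanning both RPL7A introns counted for each, so the gene had 1661 such counts but 851 reads. For ASC1 the values were 94.2%, 93.1%, 95.5% and 93.5%. In TEF4, which encodes translation elongation factor 1B gamma, they were 87.6% and 90.9% in Nab2-AA, against 97.6% and 95.4% in Control-AA. TEF4 was thus the gene of these 4 whose strains did not overlap at this position. Beyond the limit TEF4 was spliced in 58.0% and 71.4% of 50 and 14 reads in Nab2-AA. In Control-AA it was spliced there in 91.7% and 88.9% of only 12 and 9 reads (edgeR adjusted p = 0.255). ASC1 gave 39.4% and 37.8% beyond it in Nab2-AA, against 22.2% and 23.1% of 9 and 13 Control-AA reads (edgeR adjusted p = 0.512). RPL7A and RPS4B had at most 7 Control-AA reads there.

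Per intron, the spliced share over all reads was tested in 205 introns with at least 20 spanning reads in all and 1 in every library. It fell in 16 introns (7.8%) and rose in none by edgeR's interaction test at an adjusted p under 0.05, with 43 at an unadjusted p under 0.05, 2 of them higher. Both Nab2-AA libraries lay below both Control-AA libraries in 87 introns (42.4%) and above both in 20 (9.76%). DESeq2 called 1 of the 16, and leaving out Control-AA replicate 1, Control-AA replicate 2, Nab2-AA replicate 1 or Nab2-AA replicate 2 left 9, 2, 2 and 4.

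The RPL21B intron (chromosome XVI, 406647 to 407067) fell most clearly, with 58.9% and 55.3% spliced in Nab2-AA, against 89.9% and 83.8% in Control-AA, a log2 odds ratio of -2.17 ± 0.35 (SE; edgeR adjusted p = 2.71e-07). This intron passed in every alternative run for this test. The RPL2A intron (chromosome VI, 221268 to 221414) was spliced in 87.3% and 87.9% against 98.1% and 95.5%, a log2 odds ratio of -2.04 ± 0.41 (edgeR adjusted p = 7.53e-05). These are also the genes whose chimeric share rose. Of chimeric reads spanning the RPL21B intron 4 of 110 were spliced, and of those spanning the RPL2A intron 1 of 70.

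TEF4 (intron at chromosome XI, 283096 to 283421) was spliced in 66.4% and 67% of reads in Nab2-AA, against 81.0% and 86.2% in Control-AA (edgeR adjusted p = 0.000175). RPS18A (intron at chromosome IV, 1359970 to 1360404) was spliced in 60.6% and 66.1% against 77.9% and 81.2% (edgeR adjusted p = 0.000893). ASC1 was spliced in 77.0% and 74.7% against 89.2% and 86.6%. All 3 genes showed separate groups, as did TAF14, a subunit of transcription factor TFIID. TAF14 was spliced in 12.2% and 6.67% of 41 and 15 reads, against 42.9% and 69.2% of 7 and 13 reads. Reads that also covered RPL5 upstream made up 39.6% and 55.6% of TAF14 reads in Nab2-AA, against 0.0% in both Control-AA libraries. Of those spanning the intron 0 of 23 were spliced, and the part of this in the fall was not tested. RPL16A, RPL25, RPS7A and RPS17A followed, with differences of -10.4, -14.1, -5.40 and -14.7 percentage points. The other introns called were those of ARP9, EFB1, RPS16B, RPS19B, SEC14 and RPL28. ACT1 was spliced in 82.5% and 84.0% against 85.7% and 88.0% and did not pass (edgeR adjusted p = 0.250).

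RP genes supplied 10 of the 16 introns, out of 91 tested, and other genes 6 of 114, beside 7.8% of all 205 introns. Their median differences were -5.40 and -4.39 percentage points, against -4.88 over all introns. Of 10 introns in snoRNA host genes 3 fell, those of TEF4, ASC1 and EFB1. Of 8 cytoskeletal introns 1 fell, that of ARP9. ARP9 encodes an actin-related subunit of chromatin remodelling complexes and does not do what the list's name says. Of 11 membrane traffic introns 1 fell, that of SEC14, a phosphatidylinositol transfer protein gene. None of 7 RNA processing and export introns, 5 ubiquitin and proteasome introns, 3 mitochondrial respiratory introns or 14 introns of genes with 2 introns passed.

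Among within reads alone the picture was different. Of 163 introns tested, 2 fell (1.23%) and 0 rose by edgeR, 8 had an unadjusted p under 0.05, and both Nab2-AA libraries lay below both Control-AA libraries in 35 (21.5%) and above both in 19 (11.7%). TEF4 fell, with 67.9% and 66.3% against 80.0% and 86.1% (log2 odds ratio -1.30 ± 0.31, SE; edgeR adjusted p = 0.00586). RPS9A also fell, with 4.81% and 1.89% against 15.6% and 17.1% (edgeR adjusted p = 0.0497). RPS9A has a near-identical paralog, RPS9B, and reads of a spliced transcript may be assigned to either copy, so its spliced share is uncertain. Both calls were lost with DESeq2 (adjusted p = 0.988 each).

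Genes with the most within reads gave near-equal shares. ACT1 was spliced in 87.8% and 87.5% of within reads in Nab2-AA, against 87.3% and 89.8% in Control-AA, a log2 odds ratio of -0.13 ± 0.23 (edgeR adjusted p = 0.911). RPS4B gave 95.2% and 95.9% against 95.6% and 95.7%, and RPS7A 96.9% and 95.9% against 99.1% and 97.3%. A result that misses the threshold does not show that the strains were alike.

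The 16 introns can be followed from all reads to within reads, which are a subset of the same molecules and no independent sample. Of the 16, 15 could be tested there and 1, TEF4, was called. In all 15 the strain difference was smaller in within reads, with a median of -2.51 percentage points against -14.1 over all reads. Since they were chosen by their difference over all reads, a smaller value in a subset is no finding; over all introns tested the medians were -0.658 within and -4.88 over all reads. RPL21B went from -29.7 to 1.30, RPS18A from -16.2 to 1.32, and RPS19B from -15.3 to 5.96. TEF4 remained at -16.0 against -16.9, and ARP9 and SEC14 at -26.3 and -20.8 with few reads. Of the 16 introns, 11 lie in genes whose share of reads ending beyond the gene also rose, beside 27.2% of all 224 genes. This overlap was not tested.

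**Figure D5:**
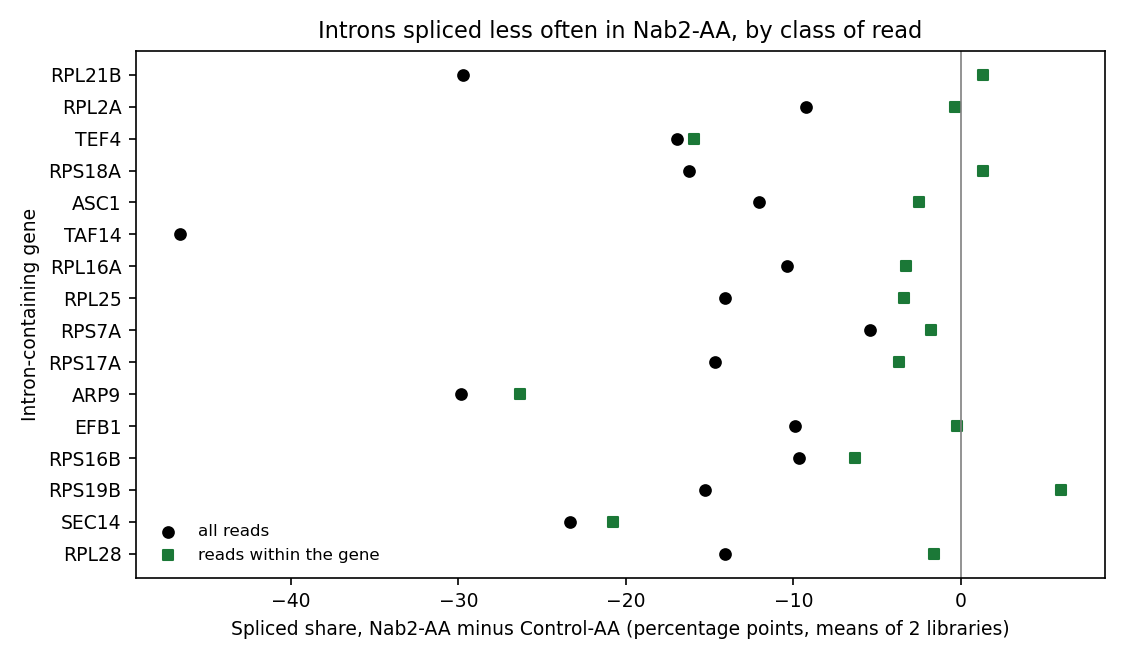
Difference in spliced share, Nab2-AA minus Control-AA in percentage points of the means of 2 libraries, for the 16 introns that fell over all reads: circles for all reads, squares for reads within the gene (TAF14 was not tested there). Squares lie nearer to 0 than circles in 15 of 15 introns, and TEF4 stays at -16.0.

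Among beyond reads, 115 introns could be tested. One intron rose (0.87%), that of RPS10B, and 0 fell; 18 had an unadjusted p under 0.05 by edgeR, 14 of them higher. Both Nab2-AA libraries lay above both Control-AA libraries in 32 (27.8%) and below both in 14 (12.2%). RPS10B, a small-subunit gene (chromosome XIII, 732414 to 733141), was spliced in 64.2% and 52.5% of its 176 and 59 beyond reads in Nab2-AA, and in 1 of 16 and 2 of 19 in Control-AA (edgeR adjusted p = 0.0249). Without any 1 of the 4 libraries the RPS10B call was lost.

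The number of reads per gene also shifted between strains, as a share of all reads on intron-containing genes. Of 225 genes tested with edgeR after TMM scaling, 15 rose (6.67%) and 18 fell (8.0%). In this bulk RNA, fewer cells giving a transcript and less of it per cell cannot be told apart. Without Control-AA replicate 2 none of the 33 passed, and DESeq2 called 1 higher and 16 lower.

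The genes that fell ranged from 224 reads in all (RPS27B, named after its values were seen) to 2575 (ACT1). ACT1 had 383.0 and 319.0 reads per 10000 in Nab2-AA, against 557.2 and 512.4 in Control-AA, a log2 fold change of -0.58 ± 0.12 (SE; edgeR adjusted p = 0.000280). RPS11A had 42.2 and 43.4 against 85.1 and 70.6, a log2 fold change of -0.85 ± 0.17 (edgeR adjusted p = 0.000262). RPL7A, ASC1, TEF4, RPS4B, RPL2B and RPS4A fell by between 0.50 and 0.62 on the log2 scale. Of 88 RP genes tested 13 fell (14.8%) and 4 rose, and of 7 snoRNA hosts 4 fell, with RPL7A in both lists, beside 8.0% lower over all genes.

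Genes that rose were of more than 1 kind. REC102 had 27.3 and 29.3 reads per 10000 against 6.99 and 4.93 (edgeR adjusted p = 2.63e-05) and DMC1 13.5 and 15.1 against 5.83 and 3.29. In 5 of the 15 genes over 50% of reads were chimeric, namely REC102, DMC1, MUD1, YCL012C and YOS1, and none of these had enough reads to be tested once chimeric reads were left out. RPS10B had 80.6 and 76.5 against 37.3 and 40.2, RPS9A 128.2 and 105.7 against 58.3 and 70.6, and RPL22B 30.7 and 20.8 against 10.5 and 13.1, with no chimeric reads. The paralog RPS9B fell, and the division of reads between the 2 copies was not tested. COI1, opposite the end of YRA1, also rose, but 39 of its 47 reads carry a name that also occurs on the other strand.

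The authors' deposited table of fraction spliced was read for 4 genes, and in each both Nab2-AA values lie below both Control-AA values. It comes from the same 4 libraries, and RPL21B, TEF4 and RPS18A were already called lower here, so it is no independent sample. Over all genes with a value, its mean was 0.353 and 0.354 for Nab2-AA, against 0.407 and 0.426 for Control-AA. For RPL21B the authors' deposited table lists 0.564 and 0.551 for Nab2-AA, against 0.885 and 0.830 for Control-AA, and for TEF4 0.662 and 0.667 against 0.816 and 0.853. In the authors' deposited table RPS18A stands at 0.604 and 0.636 against 0.75 and 0.818, and ACT1 at 0.824 and 0.835 against 0.853 and 0.885. Over genes with at least 20 spanning reads, the table's values differed from the shares counted here by a median of 0.00727 to 0.0133.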

How the data were processed

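Alignments of 4 long-read libraries were used, as deposited by the authors. The submitters' processing notes name cutadapt 1.9.1, minimap2 2.17, SAMtools 1.9, bedtools 2.29.2 and HISAT2 2.1.0 for the series, without saying which step used each, and the genome build sacCer3. The deposited files give other values, the genome start and end of each alignment, a mapping quality score, and a count of aligned blocks. The authors also deposited a fraction spliced per gene, with the number of reads behind it unknown. Genes were placed by the RefSeq R64 table of the same assembly. Repeated lines of 1 alignment were counted 1 time. Introns were gaps of at least 40 nt seen in at least 3 reads, giving 224 introns in 217 genes, and 1 gap of NSP1, present in every read, was left out after seeing the data. Of the read and intron pairs, 56779 were classed and 386 could not be.

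Shares per gene or intron were tested with edgeR 4.0.16 (quasi-likelihood, strain by state interaction, 1 term per library, Benjamini-Hochberg at 0.05) and reads per gene with edgeR after TMM scaling. End distances were tested with limma 3.58.1 on log2 medians. In the tests of shares, features needed 20 reads in all and 1 in each library, and for reads per gene 20 in all. End distances needed 5 reads ending past the coding end in each library. DESeq2 1.42.0, other limits, filters and left-out libraries were alternatives. Library shares used an exact permutation test. The tests were also run on simulated data with an assumed scatter between libraries, which cannot give their error rate in these libraries. R 4.3.3, Python 3.11.15, SciPy 1.17.1 and matplotlib 3.10.9 were used.

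Replicate numbers showed no sign of pairing the libraries (correlation of replicate differences 0.0225 for splicing over 111 introns and -0.0768 for ends over 121 genes). Such values cannot show whether the libraries were prepared in pairs, and the labels do not say. Members and lists were chosen with earlier results of these data known. Named genes are ACT1, up to 10 per direction by adjusted p, or the 5 with most reads where fewer than 5 passed, the 10 pairs with most chimeric reads, the genes with most spanning reads, and the 3 members of each list with most reads. VMA10, PFY1, UBC4, HNT1, ARP9, EFB1, RPS16B, RPS19B, SEC14, RPL28, YOS1 and COI1 were in part named after their values were seen. Mapping quality was under 10 in 1.37% to 2.12% of alignments, so paralogs, overlapping genes and antisense partners are uncertain. The other samples of the series were not used here.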

Additional observations from a re-analysis of the deposited data

Results flagged for a closer look

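Reads on the strand opposite an intron-containing gene stood outside the comparisons above. After leaving out read names found on both strands, they made up 5.83% and 6.94% of pairs in Nab2-AA, against 4.14% and 4.08% in Control-AA, so both Nab2-AA libraries lay above the control level. Part of them are reads of another intron-containing gene that ran on into the opposite strand's gene: 10.4% and 7.65% in Nab2-AA, against 3.55% and 6.28% in Control-AA. SCS22 had the most reads on its opposite strand, 163 and 58 in Nab2-AA against 12 and 27 in Control-AA. COI1, which faces the end of YRA1, had 143 and 39 such reads in Nab2-AA, against 11 and 23 in Control-AA, of which 142, 38, 11 and 22 were also reads of YRA1.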

How the results depend on the processing

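The shares of reads ending beyond, starting upstream and chimeric, and the spliced shares over all and within reads, kept their direction in each alternative run. With equal weight per intron the spliced share over all reads differed by -5.87 in place of -9.90 percentage points. The share spliced among beyond reads changed sign with equal weight per intron, from -2.07 to 3.25 percentage points, and the cause was not tested. RPL21B's ends beyond changed sign with a limit of 100 nt (log2 odds ratio -1.34). The replicate block gave 15 introns lower and 1 higher over all reads, 0 within and 0 beyond. It gave 48 genes raised in ends beyond, and 12 higher and 20 lower in reads per gene. Whether the replicate numbers pair the libraries is not known. With DESeq2, 1 intron was lower over all reads, 0 within, 40 genes rose and 0 fell in ends beyond, 4 rose in chimeric share and 1 rose in reads per gene. With no filter, 0 introns were lower within, 2 higher beyond, 38 genes rose and 0 fell in ends beyond, and 4 rose in upstream starts. Counting identical alignments as 1 left 1 intron within and 0 genes lower in ends beyond, and gave 5 longer end distances. A mapping quality of at least 10, chosen after seeing the data like the test of beyond reads, left 1 intron within and 3 genes higher in reads per gene, and leaving out chimeric reads, also chosen then, left 6. A limit of 100 nt left 28 genes in ends beyond, an upstream overlap of 200 nt gave 4 chimeric genes, gap ends within 3 nt gave 1 intron higher, and reads ending before the coding end gave 0 introns within. Without names on both strands 0 genes fell in ends beyond. Leaving out 1 library at a time gave 2 to 9 introns over all reads, 0 to 1 within, 0 beyond, 0 to 30 genes raised and 0 lowered in ends beyond, 0 to 2 in chimeric share, 1 to 3 in upstream starts, 0 to 9 higher and 0 to 14 lower in reads per gene, and 0 to 5 in end distance. An arm left with 1 library is assumed to vary like the other. The cause of these changes was not tested. Depth, lowest at 10042 alignments, limits genes with few reads.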
